A study of Mus musculus with 12 samples.

Results

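Foam-type macrophages of the mouse aorta, a name given here by a marker rule alone, were taken as barcodes with at least 1 UMI (unique molecular identifier, 1 captured RNA molecule) of at least 2 of the genes Mmp12, Trem2 and Gpnmb, at least 1 UMI of Tyrobp, and none of the B cell gene Cd79a or the T cell gene Cd3d. Only barcodes with over 200 genes, over 1000 UMIs and under 10% mitochondrial UMIs were used. The rule found 92 members among 38072 such barcodes of 4 libraries. Of these 66 came from the AS (atherosclerosis) library, 17 from the MTZ-treated library, 9 from the MTZ-preventive library and 0 from the library labelled Healthy. Members were thus chosen by their measured counts of Mmp12, Trem2, Gpnmb, Tyrobp, Cd79a and Cd3d, and the levels of these genes in members are a description of the choice.

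Each library was 1 droplet-based 5′ gene expression library from the pooled aortas of 6 mice. By the study's account, the mice were male C57BL/6J ApoE-/- mice, which lack apolipoprotein E throughout the body, and were 8 weeks old at the start of 24 weeks of feeding. Mice of the Healthy label had a normal diet with saline. The AS model group received a diet with 1% cholesterol and 10% fat and saline. The MTZ-treated group received that diet and methazolamide (MTZ, spelled methoxazolamide in the labels), a carbonic anhydrase inhibitor, at 25 mg/kg every other day over the last 12 weeks, from week 13. The MTZ-preventive group received the same diet and dose over all 24 weeks. With 1 pooled library per group there was no spread between mice to set a difference against, so no test between groups was made, and every interval below (95%) and every limit from a count of 0 covers counting error only.

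Macrophages in the arterial wall take up modified lipoproteins and become foam cells. Trem2, a lipid-sensing receptor that signals through the adaptor Tyrobp, marks the lipid-loaded state, in which lysosomal and lipid-handling genes are raised. Mmp12 is the macrophage elastase, Gpnmb is a transmembrane glycoprotein of late endosomes and lysosomes, and Spp1 encodes osteopontin, a secreted matrix protein. Tissue macrophages with complement C1q genes were used here as their neighbour class.

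The genes of the rule lie far apart on mm10, the build of the deposited counts, with positions here from the RefSeq annotation of its patch GRCm38.p6. Mmp12 (ENSMUSG00000049723) lies on chromosome 9 from 7344397 to 7360461, Trem2 (ENSMUSG00000023992) on chromosome 17 from 48346401 to 48352276, Gpnmb (ENSMUSG00000029816) on chromosome 6 from 49036518 to 49058182, and Tyrobp (ENSMUSG00000030579) on chromosome 7 from 30413782 to 30417582. Spp1 (ENSMUSG00000029304) lies on chromosome 5 from 104435111 to 104441053.

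The libraries differed in depth and in one respect from their labels. The library labelled Healthy had 12340 barcodes past the limits with 35008819 UMIs, AS had 2201 with 3870386, MTZ-treated had 7215 with 16740509 and MTZ-preventive had 16316 with 43389268. AS was the shallowest, with a median of 1300 UMIs per barcode against 2002, 1569 and 1770 in the library labelled Healthy, MTZ-treated and MTZ-preventive. Apoe stood at 677 CPM (counts per 1000000 UMIs) over all barcodes past the limits in the library labelled Healthy (interval 668 to 685), against 11.4, 12.6 and 8.46 CPM in AS, MTZ-treated and MTZ-preventive, which goes against the ApoE-/- label of the first. In its C1q macrophages Apoe reached 14022 CPM, and in members of the other libraries 3 UMIs were seen for AS, 1 for MTZ-treated and 2 for MTZ-preventive. Values of the library labelled Healthy are therefore given beside the others without a comparison of diets. Pairs of libraries shared between 209 and 805 deposited barcodes, and no barcode was a member in 2 libraries. Of the AS member barcodes 4 were also deposited in the library labelled Healthy, 2 in MTZ-treated and 1 in MTZ-preventive, and 1 MTZ-treated member barcode was deposited in MTZ-preventive.

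Members took the largest share of the AS library. They made up 3.0% of barcodes past the limits in AS (66 of 2201, exact Clopper-Pearson interval 2.33% to 3.80%), 0.236% in MTZ-treated (17 of 7215, 0.137% to 0.377%) and 0.0552% in MTZ-preventive (9 of 16316, 0.0252% to 0.105%). In the library of the Healthy label 0 of 12340 barcodes met the rule, which allows a share of up to 0.0243%. The AS share was 12.7 times that of MTZ-treated (exact interval 7.38 to 23.1) and 54.4 times that of MTZ-preventive (27.0 to 124). It was 123 times the limit of 0.0243% for the library labelled Healthy, a value that leaves out the interval of the AS share itself. The 3 intervals do not overlap under this rule, but they treat barcodes as independent, and the spread between mice is not known. The MTZ-treated and MTZ-preventive intervals did overlap in several alternatives. Among these were thinning to 1000 UMIs, all 3 rule genes, barcodes with a Tyrobp UMI as the base, a looser cell filter and removal of members with RNA of another cell type.

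**Figure D1:**
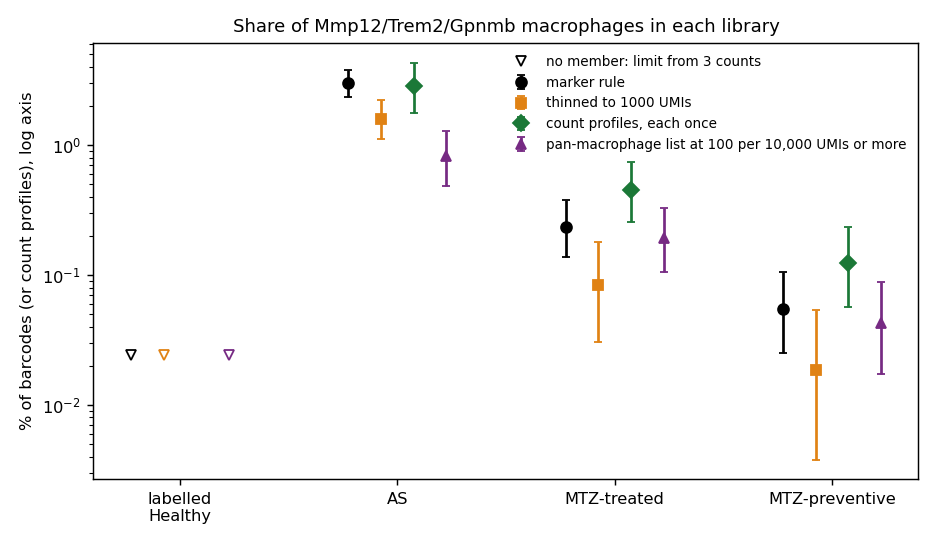
Share of members in each library on a log axis, with exact 95% intervals, for the marker rule, for barcodes thinned to 1000 UMIs, for count profiles each counted once and for members with at least 100 UMIs of a pan-macrophage list per 10000 UMIs. Open triangles give the limit that a count of 0 allows in the library labelled Healthy, which was not grouped into profiles, and under each measure AS lies highest and MTZ-preventive lowest of the 3 libraries with members.

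The size of the difference depended on what the members were set against. Of barcodes with a Tyrobp UMI, 13.8% of 479 were members in AS, 2.45% of 695 in MTZ-treated and 0.993% of 906 in MTZ-preventive. Among members and C1q macrophages together, members were 43.4% of AS, 8.37% of MTZ-treated and 8.82% of MTZ-preventive barcodes. On this base AS was 5.18 times MTZ-treated (3.01 to 9.43), and the MTZ libraries did not differ beyond their intervals. C1q macrophages were barcodes with Tyrobp, at least 2 of C1qa, C1qb and C1qc, no Cd79a or Cd3d and fewer than 2 of Mmp12, Trem2 and Gpnmb. AS held 86 of them, MTZ-treated 186, MTZ-preventive 93 and the library labelled Healthy 47. Their own share of AS was 1.52 times that of MTZ-treated (1.16 to 1.97) and 6.86 times that of MTZ-preventive (5.05 to 9.29), so the C1q neighbours differed in the same order by smaller factors.

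The AS members were the shallowest. AS members had a median of 1607 UMIs, MTZ-treated members 6068 and MTZ-preventive members 5013. After every barcode was thinned to 1000 UMIs, 35 AS members, 6 MTZ-treated members and 3 MTZ-preventive members were left, and 20 repeated draws gave 35 to 47, 3 to 11 and 2 to 6. The AS to MTZ-treated ratio was then 19.1 (7.96 to 55.6).

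The 3 rule genes came in different pairs. In AS 17 members had all 3, 33 had Mmp12 and Trem2 alone, 11 had Mmp12 and Gpnmb alone, and 5 had Trem2 and Gpnmb alone. In MTZ-treated the counts were 3, 13, 0 and 1, and in MTZ-preventive 3, 4, 0 and 2. Mmp12 with Trem2 was thus the commonest pair in all 3 libraries. Just outside the rule, with Tyrobp and 1 of the 3 genes, lay 84 AS barcodes, 122 MTZ-treated barcodes, 79 MTZ-preventive barcodes and 18 of the library labelled Healthy. At the edge inside, 11 of the 66 AS members and 1 of the 17 MTZ-treated members had exactly 2 UMIs over the 3 genes.

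As a description of the choice, members took 61.9% of all Mmp12 UMIs of the AS library, 96.7% in MTZ-treated and 93.6% in MTZ-preventive, while they took 57.9%, 27.5% and 27.2% of Trem2 UMIs and 42.2%, 9.0% and 11.3% of Gpnmb UMIs. Genes that the rule did not use were read after thinning every barcode to 1000 UMIs. Lgals3 encodes galectin-3, a lectin of activated macrophages. A UMI of Lgals3 was seen in 63 of 66 AS members, in 17 of 17 MTZ-treated members and in 9 of 9 MTZ-preventive members, against 14.8%, 9.22% and 12.5% of endothelial-marker barcodes, which served as background (barcodes with at least 2 of Pecam1, Cdh5 and Cldn5 and no Tyrobp, median 1433, 1672.5 and 2269 UMIs). Spp1 was seen in 92.4% of AS members, 70.6% of MTZ-treated members and 44.4% of MTZ-preventive members, against 17.0%, 1.24% and 0.332% of endothelial-marker barcodes. Ms4a7, a macrophage membrane protein gene, was seen in 24.2%, 23.5% and 77.8% of members, against 1.08%, 0.275% and 0.0475% of endothelial-marker barcodes. All these shares lay well above the background share, which for Spp1 was itself highest in AS.

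The members differed in their content of macrophage genes that the rule did not use. A list of 12 pan-macrophage genes (Cd68, Csf1r, Adgre1, Fcgr1, Mertk, Itgam, Lyz2, Fcer1g, Ctss, Aif1, Mpeg1 and Cd14) was summed in each member. The median was 61.0 UMIs per 10000 UMIs in AS members (0 to 435), 180 in MTZ-treated members (18.6 to 1065) and 183 in MTZ-preventive members (49.6 to 315). For C1q macrophages of the same libraries it was 91.8, 98.9 and 57.4, and for endothelial-marker barcodes 0 in each of these libraries. Only 18 of 66 AS members (27.3%) reached 100 per 10000, against 14 of 17 (82.4%) in MTZ-treated and 7 of 9 (77.8%) in MTZ-preventive. Among C1q macrophages 39 of 86 reached it for AS, 93 of 186 for MTZ-treated and 31 of 93 for MTZ-preventive, so a value under this limit was common among other macrophages too. Lyz2 alone made up 8914 of the 16211 CPM of the list in AS members and 32902 of the 42564 CPM in MTZ-treated members.

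RNA of other cell types moved with this split in AS. At least 3 UMIs of a list of endothelial, smooth muscle, fibroblast, adipocyte or neutrophil genes were found in 50 of 66 AS members, 8 of 17 MTZ-treated members and 4 of 9 MTZ-preventive members. In AS these were 46 of the 48 members under 100 pan-macrophage UMIs per 10000 and 4 of the 18 at or above it. The content of these 46 barcodes, low in macrophage genes and with RNA of another cell type, goes against the name foam-type macrophage. RNA of other cell types was not particular to members, as the values of C1q macrophages below show. In MTZ-treated they were 2 of the 3 members under it and 6 of the 14 at or above it, and in MTZ-preventive 1 of 2 and 3 of 7, so the limit did not set them apart there. Smooth muscle genes accounted for 33 AS members, fibroblast genes for 28, adipocyte genes for 18, neutrophil genes for 8 and endothelial genes for 6. Summed over all AS members, the smooth muscle list stood at 2759 CPM with Tagln as its most abundant gene and only Smtn at 0, the fibroblast list at 4160 CPM with Col3a1 leading and only Postn at 0, and the adipocyte list at 1674 CPM with Cfd leading and Adipoq, Plin1, Lep and Ucp1 at 0. The neutrophil list stood at 546 CPM, led by S100a9, and the endothelial list at 469 CPM, led by Pecam1. In MTZ-treated members the same lists stood at 1485, 2641, 0, 16.9 and 16.9 CPM. C1q macrophages held 2096, 2917, 3091, 2151 and 1330 CPM of these lists in AS, in the same order. In MTZ-treated they held 3469, 6524, 32.4, 77.3 and 626 CPM. Members under 100 per 10000, 48 of AS, 3 of MTZ-treated and 2 of MTZ-preventive, are called low-macrophage members below, and results that turned on them are given without them too. The part of other cells' RNA in the results was not tested beyond that.

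Counted this way, members with at least 100 pan-macrophage UMIs per 10000 made up 0.818% of AS (0.485% to 1.29%), 0.194% of MTZ-treated (0.106% to 0.325%) and 0.0429% of MTZ-preventive. AS was 4.21 times MTZ-treated (1.98 to 9.16) and 19.1 times MTZ-preventive (7.60 to 54.0). Among members and C1q macrophages that both reached 100, members were 31.6% of 57 in AS (19.9% to 45.2%), 13.1% of 107 in MTZ-treated (7.34% to 21.0%) and 18.4% of 38 in MTZ-preventive (7.74% to 34.3%). On this last base the interval of AS overlapped those of both other libraries.

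Many AS members also repeated one another. A pair of barcodes was put in 1 count profile where their counts agreed within counting error, by a Pearson chi-square per degree of freedom under 1.3 over genes with at least 5 UMIs in the pair, with average linkage. The 66 AS members fell into 20 profiles, 12 of them of 1 barcode and 8 of several barcodes that held 54 members, the largest of 13. The 17 MTZ-treated members fell into 15 profiles and the 9 MTZ-preventive members into 9. Of all pairs of AS members 11.6% were under the limit, against 5.55% of pairs of AS C1q macrophages and 1.47% of pairs of MTZ-treated members. On genes not used for the grouping, the 300 grouped AS pairs had a median chi-square per degree of freedom of 1.21 and the 1845 other pairs one of 2.93. Whether such barcodes are separate cells was not tested.

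Repeats were common in whole libraries too. All 2201 AS barcodes fell into 738 profiles, of which 21 held a member (2.85%, 1.77% to 4.32%), and these 21 also held 81 barcodes that did not meet the rule. In MTZ-treated 15 of 3315 profiles held a member (0.452%, 0.253% to 0.745%) and in MTZ-preventive 9 of 7250 (0.124%, 0.0568% to 0.236%). Counting each profile once, AS was 6.29 times MTZ-treated (3.09 to 13.1) and 22.9 times MTZ-preventive (10.1 to 56.8).

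The AS profiles differed in content, as shown by their leading genes, which were read after the grouping. The largest, of 13 barcodes and 23468 UMIs, was led by Col3a1, Slurp1, Timp1 and the collagen VI genes, and held 18024 CPM of the fibroblast list against 4219 CPM of the pan-macrophage list. Another of 12 barcodes was led by Ly6c1 and Ifitm3 and held 12151 CPM of the metallothionein list and 1795 CPM of the endothelial list. A pair of profiles with 12 barcodes, led by Hp and Cfd, held 9863 CPM of the adipocyte gene Cfd and 16051 CPM of Mt1. Spp1 reached at most 2850 CPM in these 4 profiles and in a smaller collagen-rich one of 2 barcodes, with the highest value in the profile of 3 barcodes led by Cfd.

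Other AS profiles were higher in Spp1. One of 9 barcodes was led by Zmynd15, Cd72 and Lcp1 and held 20290 CPM of the pan-macrophage list, 15533 CPM of the complement list and 22182 CPM of Spp1. A pair of profiles with 6 barcodes was led by Mmp12 and Ctsk, the collagen-degrading cathepsin K, at 21267 and 5786 CPM, with 13292 CPM of Spp1 and 2971 CPM of Lpl. These 6 barcodes held only 6395 UMIs, with 2815 CPM of the smooth muscle gene Acta2, and their pan-macrophage list stood at 5562 CPM in the profile of 4 and 8850 CPM in the profile of 2.

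The 4 deepest AS members were single barcodes. The first (15218 UMIs) had 1275 UMIs of Spp1, or 83782 CPM, and was led by Ccl6, Vsig4, Fabp5 and Hmox1. The second (11426 UMIs), led by Npy and Gdf15, had 29144 CPM of Spp1 and all 3 rule genes. The third (10753 UMIs) was led by the chemokine genes Ccl2, Ccl12 and Ccl7, had 3069 CPM of Spp1 and was called a doublet. The fourth (7047 UMIs) was led by C1qa and Ucp2 and had 45126 CPM of Spp1 with no Mmp12 UMI. Spp1 thus spanned a wide range even among the deep AS members, and the first alone held 46.9% of the Spp1 UMIs of AS members.

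**Figure D2:**
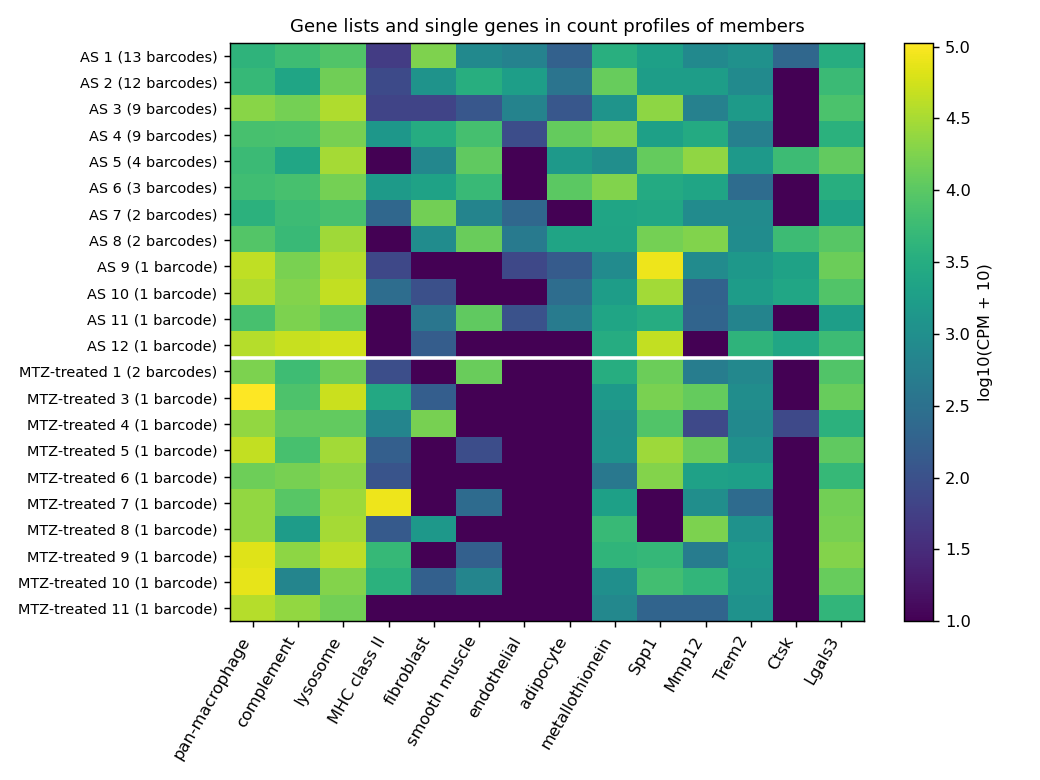
Levels as log10(CPM + 10) of 9 gene lists and 5 single genes in AS count profiles of several barcodes or of 1 barcode over 5000 UMIs, and in MTZ-treated profiles with a barcode over 5000 UMIs. The AS profiles 1 (13 barcodes) and 7 (2 barcodes) are high in fibroblast genes, the MTZ-treated profile 7 is high in MHC class II genes, and Spp1 reaches 83782 CPM in AS profile 9.

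MTZ-treated members were mostly distinct from one another. The deepest (20318 UMIs) was led by Slpi, Gpnmb and Acp5, held 106457 CPM of the pan-macrophage list and had 11763 CPM of Mmp12 and 16734 CPM of Spp1. One of 12675 UMIs was led by Fabp5, with 13018 CPM of Mmp12 and 27298 CPM of Spp1. One of 8249 UMIs was led by Retnla and Ccl24, genes of alternative macrophage activation, with 83889 CPM of the MHC class II list and no Spp1 UMI. One of 14974 UMIs was led by Pi16 and Clec3b, with 16028 CPM of the fibroblast list, and was called a doublet. A profile of 2 barcodes was led by the smooth muscle genes Tagln, Tpm2 and Acta2.

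**Figure D3:**
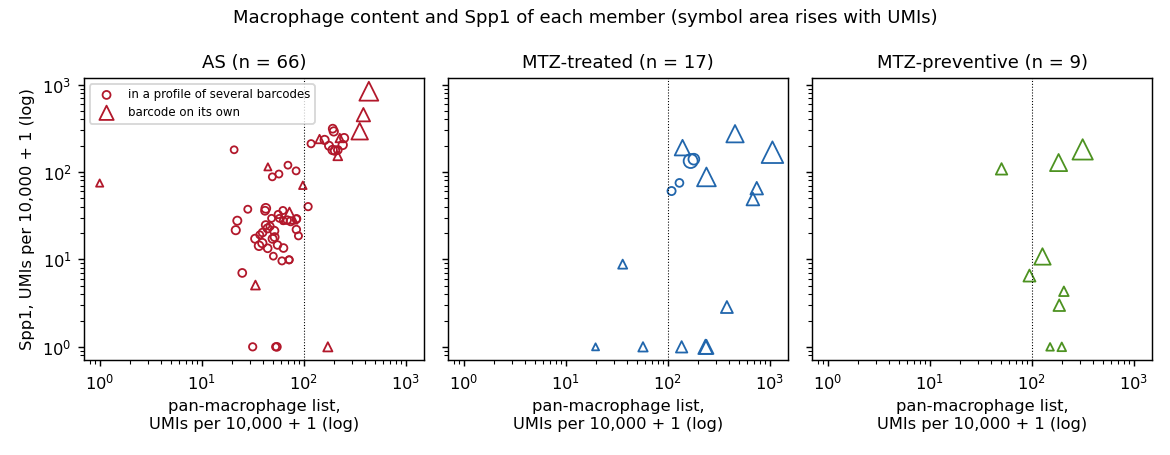
Spp1 against the pan-macrophage list in each member, both as UMIs per 10000 UMIs plus 1 on log axes, with a dotted line at 100 for the list and symbol area rising with the UMIs of the barcode. Of the AS members 48 of 66 lie under the line, mostly in profiles of several barcodes (circles), while 14 of 17 MTZ-treated members and 7 of 9 MTZ-preventive members lie at or above it.

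Gene levels in members were compared between MTZ-treated and AS as UMIs summed over members and scaled to CPM of all UMIs of members, from 118505 and 142804 UMIs. Among 1332 genes with a mean of at least 100 CPM, 5.86% were past 2-fold higher and 6.46% past 2-fold lower in MTZ-treated members, on CPM plus 10, and the median log2 ratio was 0.09. Without the low-macrophage members, from 112035 UMIs of 14 MTZ-treated and 62939 UMIs of 18 AS members, the shares were 7.36% and 9.57% of 1358 genes, with a median of -0.02. Every count of list genes below stands against these shares, 5.86% and 6.46% over all members and 7.36% and 9.57% in the subset. Of the 78 genes past 2-fold higher among all members 51 were so in this subset (65.4% of the 78 and 51.0% of its 100), and of the 86 lower 35 were (40.7% of the 86 and 26.9% of its 130). A smaller share of the lower side than of the higher side was thus held by both sets. With each count profile weighted once, 9.09% of 1375 genes were past 2-fold higher and 9.38% past 2-fold lower. With TMM (trimmed mean of M values) factors 124 of 1337 genes were higher and 68 lower, and as a mean over cells 141 and 117 of 1338. Which side held more genes thus turned on the scaling.

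**Figure D4:**
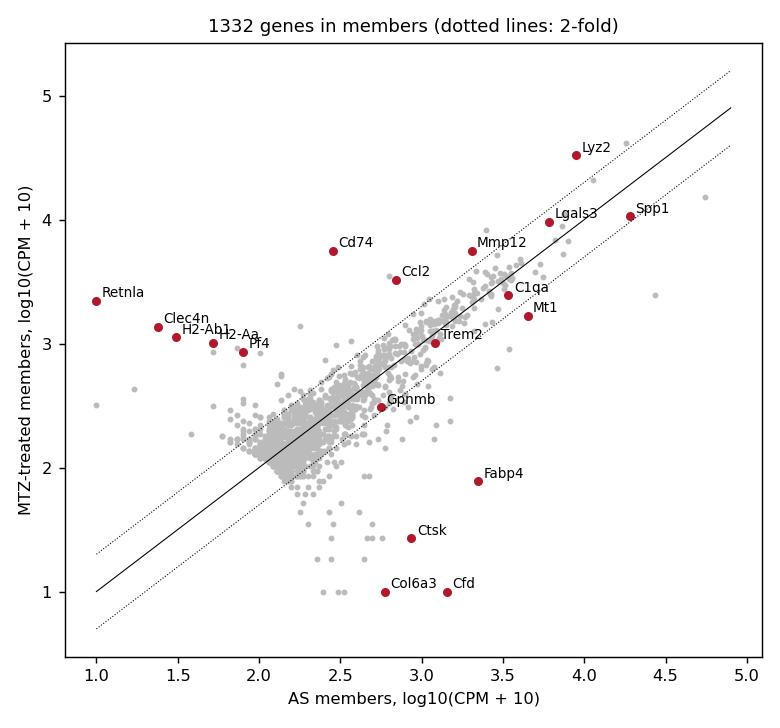
Each of 1332 genes at its level in AS members (horizontal) and MTZ-treated members (vertical), both as log10(CPM + 10), with lines of equal level and of 2-fold. Cd74, Clec4n and Retnla lie far above the 2-fold line, and Ctsk, Fabp4, Cfd and Col6a3 far below it.

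The marker genes went different ways. Spp1 stood at 19054 CPM in AS members (18345 to 19784), 10641 CPM in MTZ-treated members (10062 to 11245) and 8622 CPM in MTZ-preventive members. Per member, its lowest, median and highest counts were 0, 4 and 1275 UMIs in AS, 0, 12 and 346 in MTZ-treated and 0, 3 and 322 in MTZ-preventive, so the members of the 3 libraries overlapped. Scaled to the depth of each member, the medians of AS, MTZ-treated and MTZ-preventive members were 28.3, 59.5 and 5.54 UMIs per 10000, so the middle member of MTZ-treated lay above that of AS while the summed level lay below. The ratio of MTZ-treated to AS was 0.558 (0.522 to 0.597), and without the low-macrophage members, which held 2993 CPM in AS, it was 0.285 (0.266 to 0.305). The summed or mean level of Spp1 was lower in MTZ-treated members in each alternative that was run, but not beyond 2-fold in several of them, and without the single richest barcode in each library the log2 ratio was -0.39.

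Mmp12, used by the rule, stood at 2017 CPM in AS members, 5603 CPM in MTZ-treated members and 4185 CPM in MTZ-preventive members. Its counts per member spanned 0 to 27 UMIs with a median of 2 in AS, 0 to 239 with a median of 5 in MTZ-treated and 0 to 233 with a median of 2 in MTZ-preventive. A single barcode held 36.0% of the Mmp12 UMIs of MTZ-treated members and 87.9% of those of MTZ-preventive members. With members thinned to 1000 UMIs the log2 ratio of MTZ-treated to AS was -0.02, in place of 1.47.

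Trem2 stood at 1204, 1004 and 1532 CPM in AS, MTZ-treated and MTZ-preventive members, with a MTZ-treated to AS ratio of 0.834 whose interval spans 1 (0.654 to 1.06). Gpnmb stood at 553, 295 and 3379 CPM, but 88.6% of its UMIs in MTZ-treated and 96.7% in MTZ-preventive came from 1 barcode each. As a mean over members its MTZ-treated to AS log2 ratio was -2.17, and -2.44 thinned to 1000 UMIs, in place of -0.88 summed. It was also past 2-fold lower without the low-macrophage members. Ms4a7 stood at 637, 363 and 1358 CPM, with 21 of 66, 13 of 17 and 8 of 9 members holding a UMI. As a mean over members the Ms4a7 log2 ratio of MTZ-treated to AS was 0.31, in place of -0.80 for the summed counts. No steady order of the 3 libraries held over these markers.

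Most genes of the wider program of lipid-loaded Trem2 macrophages lay within 2-fold between the libraries over all members. Of 13 tested genes of this list, 2 were past 2-fold higher in MTZ-treated members (Fabp5, a fatty acid carrier, and the integrin gene Itgax) and 0 lower, against 5.86% and 6.46% of all tested genes. Without the low-macrophage members 1 of 13 was higher (Lpl) and 3 were lower (Spp1, Ctsb and Ms4a7), against 7.36% and 9.57%. The list then summed to 69861 CPM in AS and 39363 CPM in MTZ-treated, against 39250 and 37762 CPM over all members. This sum includes Spp1, of which 1 AS member held 1275 UMIs, and the median log2 ratio of the list in the subset was 0.17. The lower sum is thus not a lower level of most genes of the list. Fabp5 stood at 357 CPM in AS (266 to 470) and 1046 CPM in MTZ-treated (870 to 1248), but it was seen in 6 of 17 MTZ-treated members and 56.5% of its UMIs lay in 1 of them. Lgals3 stood at 6064 and 9628 CPM, a ratio of 1.59 (1.45 to 1.74) that was 1.12 (1.01 to 1.24) without the low-macrophage members. The tetraspanin gene Cd9 stood at 1940 and 3316 CPM and Cd63, of the lysosomal membrane, at 1246 and 2211 CPM, both within 2-fold.

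**Figure D5:**
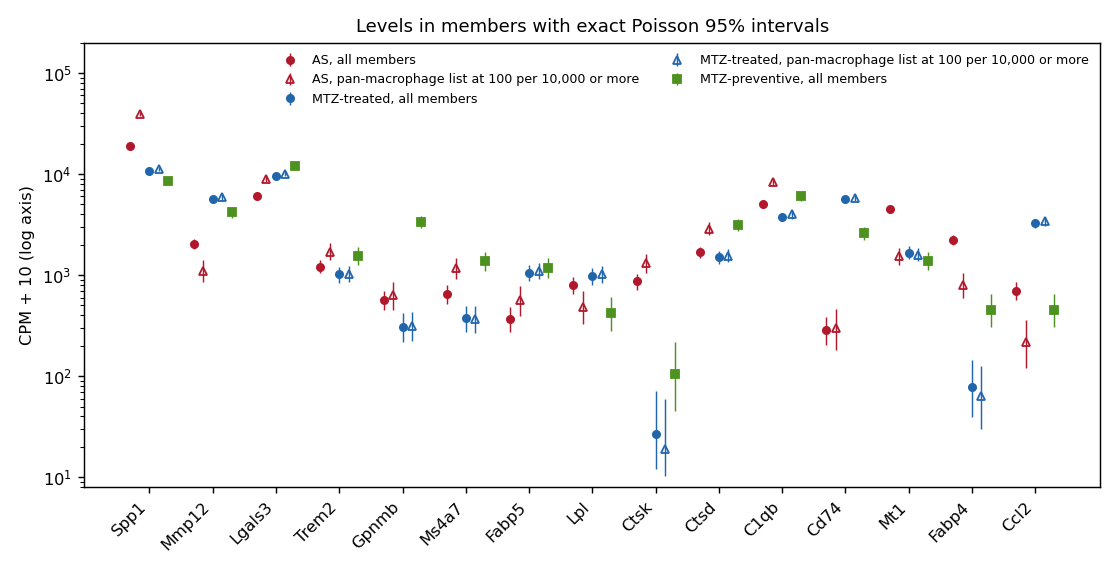
Levels of 15 genes in members as CPM plus 10 on a log axis with exact Poisson 95% intervals, for all members (filled symbols) and for those with at least 100 pan-macrophage UMIs per 10000 (open triangles). Cd74 is higher in MTZ-treated than in AS members in both sets, Ctsk and Fabp4 are lower in both, and Mt1 is lower in MTZ-treated over all members, with overlapping intervals in the subset.

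Lysosomal genes were among the most abundant in members and mostly stayed within 2-fold. Of 26 tested, 4 were higher (Ctsc, Creg1, Lipa and Atp6v0d2) and 2 lower, Ctsk among them, in MTZ-treated members, against 5.86% and 6.46% of all tested genes, with a median log2 ratio of 0.02. Without the low-macrophage members 1 was higher and 6 were lower, Ctsb, Ctsk, Grn and Lgmn among them, against 7.36% and 9.57%, with a median of -0.53. Ctsb, a lysosomal protease, stood at 5357 CPM in AS and 4371 CPM in MTZ-treated over all members, and at 9231 and 4481 CPM without the low-macrophage members, a ratio of 0.485 (0.430 to 0.548). Ctsd was 1674 and 1502 CPM over all members. For lysosomal genes the outcome turned on which AS members were counted.

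Ctsk was past 2-fold lower in MTZ-treated members with and without the low-macrophage members. It stood at 854 CPM in AS members (122 UMIs in 13 members), 16.9 CPM in MTZ-treated members (2 UMIs in 2 members) and 94.7 CPM in MTZ-preventive members (all in 1 member). The ratio of MTZ-treated to AS was 0.0198 (0.00237 to 0.0729), and 0.00685 (0.000171 to 0.0393) without the low-macrophage members. In AS, 26.2% of its UMIs were in 1 barcode, and 77 of the 122 were in 3. C1q macrophages of the same libraries held 41.8 CPM in AS and 79.8 CPM in MTZ-treated, so the high level was found in AS members and not in AS C1q macrophages. Acp5, which like Ctsk is best known from osteoclasts, went the other way, at 70.0 CPM in AS and 346 CPM in MTZ-treated members, seen in 7 and 3 members, with 73.2% of its MTZ-treated UMIs in 1 barcode.

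Lipid-handling genes were past 2-fold in both directions. Of 5 tested genes of lipid uptake and storage 1 was higher (Fabp5) and 1 lower (Fabp4) in MTZ-treated members, against 5.86% and 6.46% of all tested genes. Fabp4, a fatty acid carrier of adipocytes, capillary endothelium and macrophages, stood at 2220 CPM in AS members (59 of 66) and 67.5 CPM in MTZ-treated members (5 of 17), a ratio of 0.0304 (0.0130 to 0.0607), and at 794 and 53.6 CPM without the low-macrophage members. Outside the members Fabp4 was lower in MTZ-treated too, at 0.350 times AS in C1q macrophages, 0.472 in endothelial-marker barcodes and 0.427 over all barcodes past the limits. Lpl, lipoprotein lipase, was 784 and 962 CPM, a ratio of 1.23 (0.937 to 1.61) that as a mean over members turned to a log2 ratio of -0.49, and the scavenger receptor gene Cd36 was 364 and 262 CPM, a ratio of 0.718 (0.445 to 1.14). Of 4 tested genes of cholesterol efflux 1 was higher (Lipa) and 0 lower, and Pltp, the phospholipid transfer protein, was 1085 and 709 CPM. In the subset without low-macrophage members 0 of 5 were higher and 3 lower (the cholesterol exporters Abca1 and Abcg1, and Pltp), against 7.36% and 9.57% of all tested genes, with a median log2 ratio of -1.10, and the higher gene of lipid uptake was Lpl in place of Fabp5. Fdps, of cholesterol synthesis, was the single gene of its list abundant enough to test, at 28.0 and 177 CPM from 4 and 21 UMIs.

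MHC class II genes, which present antigen to T cells, made up the most marked group on the higher side. All 4 tested genes of the list (Cd74, H2-Aa, H2-Ab1 and H2-Eb1) were past 2-fold higher in MTZ-treated members, with and without the low-macrophage members, against 5.86% of all tested genes. Cd74, the invariant chain, stood at 273 CPM in AS members (12 of 66), 5603 CPM in MTZ-treated members (10 of 17) and 2574 CPM in MTZ-preventive members (6 of 9), a MTZ-treated to AS ratio of 20.5 (14.8 to 29.1). H2-Ab1 stood at 21.0, 1114 and 284 CPM, H2-Aa at 42.0, 1004 and 442 CPM, and H2-Eb1 at 42.0, 844 and 316 CPM. At least 5 UMIs of these 4 genes together were found in 2 of 66 AS members, 8 of 17 MTZ-treated members and 4 of 9 MTZ-preventive members, counts that were not thinned and come from members of unequal depth (median 1607, 6068 and 5013 UMIs). After thinning to 1000 UMIs a Cd74 UMI was seen in 11 of 66, 8 of 17 and 4 of 9 members. The share with at least 5 UMIs was 3.03%, 47.1% and 44.4% of members, beside 3.49%, 40.3% and 51.6% of C1q macrophages, 1.08%, 6.33% and 20.3% of endothelial-marker barcodes and 3.04%, 8.45% and 28.1% of all barcodes past the limits.

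The MTZ-treated level leaned on 1 barcode, that with Retnla, which held 63.7% of Cd74 and 75% of H2-Ab1 UMIs. With the richest barcode of each library left out, the Cd74 log2 ratio was 3.64 in place of 4.31. That of H2-Eb1 was then 1.92 in place of 4.04, and among members with all 3 rule genes, 17 in AS and 3 in MTZ-treated, it was -0.0460. The same genes differed outside the members too. The 4 genes summed to 378, 8565 and 3616 CPM in members of AS, MTZ-treated and MTZ-preventive, and to 466, 14609 and 16038 CPM in C1q macrophages of the same libraries, with 37746 CPM in those of the library labelled Healthy. In endothelial-marker barcodes they summed to 187, 491 and 1272 CPM, in the order of the C1q macrophages. Members lay below the C1q macrophages of their library in MTZ-treated and MTZ-preventive, while in AS the intervals overlapped (284 to 493 in members, 361 to 592 in C1q macrophages).

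Promoters of 2 of these genes are shown because the MHC class II genes moved together in members. Each is the 250 bases before the RefSeq start on GRCm38.p6, 5′ to 3′ on the strand of the gene, H2-Aa at chr17:34287824-34288073 on the minus strand and H2-Eb1 at chr17:34305617-34305866 on the plus strand. Capitals mark CTGATTGG, the core of the Y box of MHC class II promoters, which begins 51 bases before the start in H2-Aa and 62 bases before it in H2-Eb1.
H2-Aa: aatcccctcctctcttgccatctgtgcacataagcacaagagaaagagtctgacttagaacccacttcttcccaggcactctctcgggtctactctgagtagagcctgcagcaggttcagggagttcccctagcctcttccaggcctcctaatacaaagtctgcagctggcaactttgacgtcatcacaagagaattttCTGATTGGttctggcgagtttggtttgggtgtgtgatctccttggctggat
H2-Eb1: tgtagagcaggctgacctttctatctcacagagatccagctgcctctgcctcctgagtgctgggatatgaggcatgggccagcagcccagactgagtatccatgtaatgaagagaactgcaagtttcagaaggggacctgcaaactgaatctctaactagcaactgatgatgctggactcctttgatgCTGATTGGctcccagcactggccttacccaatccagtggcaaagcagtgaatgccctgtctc
The motif was searched on both strands and occurs in 3.83% of 32851 promoters of this length. It was chosen after 8 genes' entries were looked up, 7 of which are in the table, and it was found in 3 of them. The other one was Spp1, whose level in members went the opposite way, while H2-DMa, also of the MHC class II list, had no match.

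Several chemokine genes were higher in MTZ-treated members, and Ccl2 was higher in C1q macrophages too. Of 11 tested genes of the inflammatory list 5 were past 2-fold higher (Ccl2, Ccl3, Ccl6, Ccl9 and Il1rn) and 1 lower (Tnfaip3), against 5.86% and 6.46% of all tested genes. In the subset without low-macrophage members 4 were higher (Ccl2, Ccl3, Ccl9 and Il1rn) and 2 lower (Tnf and Tnfaip3), against 7.36% and 9.57%. Ccl2, which attracts monocytes, stood at 686 CPM in AS members (21 of 66), 3249 CPM in MTZ-treated members (9 of 17) and 442 CPM in MTZ-preventive members (5 of 9), a MTZ-treated to AS ratio of 4.73 (3.78 to 5.97), beside 3.35 (2.37 to 4.87) in C1q macrophages. In AS 65.3% of the Ccl2 UMIs lay in 1 barcode and in MTZ-treated 63.6%. Il1rn, the interleukin-1 receptor antagonist, stood at 42.0 and 304 CPM and was seen in 6 of 66 and 7 of 17 members.
Cxcl2, a neutrophil chemokine, stood at 2885, 5131 and 4911 CPM in AS, MTZ-treated and MTZ-preventive members, within 2-fold, with a MTZ-treated to AS ratio of 1.93 (1.70 to 2.19) in C1q macrophages, and Tnf at 364, 211 and 189 CPM. In MTZ-preventive members Ccl2, Ccl3 and Ccl9 had only 28, 1 and 4 UMIs, and their intervals overlapped those of AS members, for Ccl2 294 to 639 CPM beside 557 to 836 CPM.

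Complement genes were within 2-fold over all members, with 0 of 7 tested past it in either direction, against 5.86% higher and 6.46% lower of all tested genes. C1qb stood at 4993, 3772 and 6048 CPM and C1qa at 3403, 2447 and 3632 CPM in AS, MTZ-treated and MTZ-preventive members. As a mean over members the C1qb log2 ratio of MTZ-treated to AS was 0.23, in place of -0.40 for the summed counts. Without the low-macrophage members 3 of 5 were past 2-fold lower in MTZ-treated (C1qa, C1qb and C5ar1), against 9.57% of all tested genes, C1qa at 5990 CPM in AS and 2588 CPM in MTZ-treated. Of 4 tested genes of resident macrophages Pf4 was higher (70.0 and 844 CPM) and Folr2 and Selenop were lower, and of 5 in the subset Pf4 was higher and Folr2, Selenop and Vsig4 were lower, with a median log2 ratio of -2.01.

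Iron storage genes were high in members. Fth1, the ferritin heavy chain, stood at 17913 CPM in AS, 41534 CPM in MTZ-treated and 37837 CPM in MTZ-preventive members, and 2 of 7 tested genes of the iron and heme list were past 2-fold higher in MTZ-treated (Fth1 and Slc11a1), against 5.86% of all tested genes, and 1 in the subset (Slc11a1). Without the low-macrophage members Fth1 was at 25421 and 41335 CPM, a ratio of 1.63 (1.54 to 1.72). Mt1, a zinc-binding metallothionein, stood at 4468, 1662 and 1374 CPM, a MTZ-treated to AS ratio of 0.372 (0.316 to 0.437), but low-macrophage AS members held 6786 CPM and the others 1525 CPM. The ratio was 1.04 (0.808 to 1.35) without the low-macrophage members. Outside the members Mt1 was lower in MTZ-treated too, at 0.289 times AS in C1q macrophages (0.261 to 0.320), 0.127 times in endothelial-marker barcodes and 0.140 times over all barcodes past the limits. Of 10 tested glycolysis genes, 12 genes of the dissociation stress response, 5 phagocytic and Fc receptor genes, 2 galectins and 2 interferon-stimulated genes, 0 were past 2-fold in either direction over all members. In the subset Egr1 was higher and Zfp36 lower of 11 dissociation stress genes, and Isg15 was lower of 3 interferon-stimulated genes.

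Lists of other cells gave few tested genes. The monocyte list summed to 231 CPM in AS members and 177 CPM in MTZ-treated members, and the dendritic cell list to 21.0 and 8.44 CPM. The carbonic anhydrases, the targets of the drug, summed to 175 and 42.2 CPM. Each of these lists had 0 genes abundant enough to test. Carbonic anhydrases differed outside the members too, at 216 and 42.4 CPM in C1q macrophages and 1035 and 196 CPM over all barcodes past the limits. Their leading gene in AS members was Car3, also on the adipocyte list. The B cell list stood at 77.0 and 0 CPM, the T and NK cell list at 14.0 and 0 CPM, the erythrocyte list at 154 and 16.9 CPM, the Schwann cell list at 42.0 and 75.9 CPM and the mast cell list at 0 in both. Of 8 tested pan-macrophage genes 1 was higher (Lyz2), while in the subset, whose choice used the list, 0 of 9 were higher and 1 lower (Adgre1). Of 2 tested mesothelial genes both were lower over all members (Serpina3n and Hp), and in the subset 0 were abundant enough to test.

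Among the remaining genes at the ends of the ranking, several on the higher side came from few barcodes. Retnla (2194 CPM) lay wholly in 1 MTZ-treated member and had 0 UMIs in AS members, which allows up to 21.0 CPM. Clec4n, the lectin receptor dectin-2, had 161 UMIs in 11 of 17 MTZ-treated members, 47.8% of them in 1 member, and 2 UMIs in AS, a ratio of 97.0 (26.4 to 808). Lyz1 had 80.0% of its UMIs in 1 MTZ-treated member, and Pi16 had 96.2%. Most of these genes were higher in C1q macrophages of MTZ-treated too, where Retnla had 423 UMIs against 0 in AS. Pf4 was at 5.85 times AS in that class (3.48 to 10.6) and Ccl7 at 7.42 times (3.51 to 18.8). Clec4n was at 5.91 times (1.51 to 50.8) and Lyz1 at 7.16 times (1.86 to 61.2), each from 2 AS UMIs. Pi16 was at 0.867 times AS in C1q macrophages. On the lower side Cfd (1422 CPM in AS) and Col6a3 (581 CPM) had 0 UMIs in MTZ-treated members, which allows up to 25.3 CPM, and Hp, Slurp1, Timp3, Col4a1, Col6a1 and Col6a2 had 1 to 4 UMIs. In AS these 8 genes were seen in 15 to 29 members each, with at most 13.3% of the UMIs of a gene in 1 barcode. Outside the members Cfd and Hp were lower in MTZ-treated too, at 0.00098 and 0.0045 times AS in C1q macrophages. Over all barcodes past the limits they were at 0.039 and 0.023 times. Col6a3 was at 0.269 times AS in C1q macrophages but at 1.27 times over all barcodes. The collagen genes, Slurp1 and Hp were those of the fibroblast-rich and Cfd-rich AS profiles, and without the low-macrophage members Col4a1 and Col6a1 had 0 UMIs in AS and 3 and 4 UMIs in MTZ-treated.

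Other matrix genes turned on the same members. Of 8 tested matrix proteases and inhibitors 2 were higher (Plaur and the rule gene Mmp12) and 3 lower (Ctsk, Timp1 and Timp3) in MTZ-treated over all members, and of 7 in the subset 4 were higher (Plaur, Timp1, Fn1 and the rule gene Mmp12) and 1 lower (Ctsk). Mmp12 chose the members, so its place in these counts is a description. Fn1, fibronectin, stood at 2094 CPM in AS members and 1257 CPM in MTZ-treated members, but at 318 and 1321 CPM without the low-macrophage members. In that subset the fibroblast list stood at 159 CPM in AS and 2285 CPM in MTZ-treated, with 5 of 5 tested genes past 2-fold higher against 7.36% of all tested genes, but 240 of its 256 MTZ-treated UMIs lay in 1 barcode, the called doublet led by Pi16, and the other 13 members stood at 165 CPM. The smooth muscle list stood at 429 and 1446 CPM, with 3 of 4 genes higher and 151 of its 162 MTZ-treated UMIs in 2 barcodes. Over all members 2 of 6 fibroblast genes were higher and 3 lower, and 0 of 4 smooth muscle genes were higher and 2 lower. The part of these cells' RNA in the Fn1 values was not tested. Plaur, the urokinase receptor, was higher in MTZ-treated in both sets, at 119 and 464 CPM over all members and 79.4 and 491 CPM in the subset. Lyz2, the lysozyme of macrophages and a gene of the pan-macrophage list, stood at 8914, 32902 and 6869 CPM in AS, MTZ-treated and MTZ-preventive members, and its ratio fell from 3.69 to 1.90 (1.78 to 2.03) in the subset, whose choice used it.

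Members were set beside C1q macrophages of the same library, from which the rule separated them, as a description. In AS 3.73% of 1367 tested genes were past 2-fold higher and 4.68% past 2-fold lower in members, and in MTZ-treated 9.62% and 8.27% of 1330. Beside the rule genes, the highest in AS were Ctsk, Folr2, Fabp5, Npy, Col6a1, Ccl2 and Col6a2. Col6a1 and Col6a2 were leading genes of the largest AS profile, whose barcodes were low-macrophage members, and most Ccl2 UMIs of AS members lay in a single barcode. Ctsk was 20.5 times its level in C1q macrophages (9.13 to 56.8), and Folr2, a folate receptor of resident macrophages, 3.42 times (1.89 to 6.55). Folr2 and Npy were seen in 15 and 17 AS members, with 39.2% and 47.7% of their UMIs in a single barcode. In MTZ-treated the highest were Clec4n, Prdx1, Lpl, Fabp5, Pla2g7, Spp1, Itgb2, Plaur and Msrb1. Fabp5 was named in both, beside the rule gene Mmp12. However, a single barcode in each library held most Fabp5 UMIs of members, 58.8% in AS and 56.5% in MTZ-treated.

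In MTZ-treated, Prdx1, a peroxidase induced by oxidative stress, stood at 8261 CPM in members and 983 CPM in C1q macrophages. It was seen in 17 of 17 members, with a ratio of 8.41 (7.47 to 9.47). Lpl was there 7.28 times its level in C1q macrophages (5.21 to 10.3), with 12 of 17 members holding it, and Spp1 5.44 times (4.97 to 5.96). In AS Prdx1 had 353 UMIs in members and 184 in C1q macrophages, and Lpl 112 and 60, from 142804 and 143639 UMIs. In AS the Spp1 ratio of members to C1q macrophages was 2.39 (2.23 to 2.56) over all members. It was 4.95 (4.61 to 5.31) without the low-macrophage members, beside a MTZ-treated value of 5.75 (5.25 to 6.29) for the same subset, both against all C1q macrophages, to which the limit of 100 was not applied. C1q macrophages themselves held 7971 CPM of Spp1 in AS and 1955 CPM in MTZ-treated, so Spp1 differed between the libraries outside the members too. C1qa, C1qb and C1qc, which defined the neighbour class, were at 0.786, 0.928 and 0.954 of its level in MTZ-treated members of the subset and at 2.78, 2.52 and 2.17 times its level in AS members of the subset.

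MTZ-preventive members were 9 barcodes with 63325 UMIs, 5 of them over 5000 UMIs, where a count of 0 allows up to 47.4 CPM. One of 17862 UMIs was led by Gpnmb, Npy and Mmp12 and held 322 of 546 Spp1 UMIs, 233 of 265 Mmp12 UMIs and 207 of 214 Gpnmb UMIs. Lgals3 was found in each of the 9 members, with 2 to 404 UMIs and 53.2% of them in 1 member. The lysosome list summed to 41848 CPM in these members, against 24075 CPM in AS and 26041 CPM in MTZ-treated, but 1425 of its 2650 UMIs lay in 1 barcode and the other 8 members stood at 26945 CPM. Proliferation genes stood at 665 CPM in AS members, 8.44 CPM in MTZ-treated and 94.7 CPM in MTZ-preventive members, and in AS the collagen-rich profile of 13 barcodes held 3494 CPM of them.

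Receptor libraries from the same suspensions were read for the same barcodes. No member had a productive B cell receptor or T cell receptor contig, with 0 of 66 AS members, 0 of 17 MTZ-treated members and 0 of 9 MTZ-preventive members. The exact interval reaches 5.44% of AS members and 19.5% of MTZ-treated members. Among barcodes with Cd79a, 33.3% of AS and 45.4% of MTZ-treated carried a B cell receptor contig, but only 1.54% and 1.61% of all barcodes past the limits did, and 0 of 86 and 1 of 186 C1q macrophages, so the 0 among so few members says little. The T cell receptor library of AS held 3 barcodes in all.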

How the data were processed

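The authors deposited raw UMI counts per gene and barcode from Cell Ranger 5.0.0 (with STAR and mm10 per the labels), filtered to called cells, for 4 gene expression libraries, and lists of contigs with UMI counts for 8 receptor libraries. Counts of 38 symbols listed on more than 1 line were summed. Members, gene lists and comparisons were chosen with earlier results of these data known. Members were found by the rule, their counts summed per library and scaled to CPM. A gene was past 2-fold where the ratio of CPM plus 10 was at least 2 or at most 0.5, at a mean of at least 100 CPM. Shares had exact Clopper-Pearson intervals, levels exact Poisson intervals and ratios exact conditional binomial intervals. Named genes were the rule genes and markers, Apoe, macrophage genes the study names, the 10 highest and 10 lowest ratios at a mean of at least 200 CPM, the leading genes of 36 fixed lists and the 10 highest ratios to C1q macrophages. Of 389 listed genes Clec7a and Mx1 were not found under these symbols. Side-by-side levels were planned for at least 20 barcodes per class, which MTZ-treated and MTZ-preventive members do not reach, so their values are descriptions.

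Count profiles used the 2000 genes with most UMIs and a limit of 1.3 after 1.15, 1.3, 1.6 and 2 were looked at. Profiles and their sets, the pan-macrophage limit of 100 (50, 150 and 200 were also run), the removal of the richest barcode, the promoter motif and genes named as leading a profile were chosen after seeing the data. Alternatives were other cell filters, thinning, other marker rules, removal of called doublets, other denominators, TMM (trimmed mean of M values) factors, the mean over cells, other pseudocounts and filters. Doublets were called against simulated sums of barcodes at 0.8% per 1000 barcodes, marking 2 AS, 3 MTZ-treated and 1 MTZ-preventive members. On sums of real barcodes the caller missed many in simulated tests, so these calls are incomplete, and members were kept. Ratios and intervals were tested on counts drawn at random from the summed profile of AS members, with some genes changed. Such counts follow the counting error that the intervals assume. They leave out single barcodes that hold most UMIs of a gene, so this test cannot show how the intervals hold there. Scripts ran in R 4.3.3 with edgeR 4.0.16 (TMM factors only) and in Python 3.11.15 with scikit-learn 1.9.0, matplotlib 3.10.9, pandas 2.3.3, scipy 1.17.1 and numpy 2.4.6. Some members of the gene lists are counted but not reported here by name.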

Additional observations from a re-analysis of the deposited data

Results flagged for a closer look

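Barcodes that met the marker rule outside the limits on genes, UMIs and mitochondrial share numbered 74 for AS, 8 for MTZ-treated and 2 for MTZ-preventive. Only the looser cell filter brought such barcodes into a comparison of shares. Barcodes past the limits with 2 of the 3 rule genes but no Tyrobp UMI numbered 19 for AS, 2 for MTZ-treated and 8 for MTZ-preventive. Pla2g7, a lipoprotein-associated phospholipase, had a log2 ratio of MTZ-treated to AS of 1.08 in members and of -1.34 in C1q macrophages. These are opposite directions in 2 classes of the same libraries, and the difference between them was not tested. However, 55.1% of the Pla2g7 UMIs of MTZ-treated members lay in 1 barcode, and as a mean over members the log2 ratio was only 0.30. Rule genes and genes with under 10 UMIs in a class were left out of that last search, a limit set after seeing the data.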

How the results depend on the processing

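No paired analysis was possible because each group has 1 library. The AS share stayed above both MTZ shares in each alternative run. The AS to MTZ-treated and AS to MTZ-preventive ratios of shares were 5.92 and 21.8 with at least 4 UMIs of the rule genes, 5.83 and 23.7 without members carrying 3 UMIs of another cell type's list, 5.63 and 13.9 among Tyrobp barcodes, 5.18 and 4.92 among members and C1q macrophages, 6.29 and 22.9 by count profiles, 4.21 and 19.1 at 100 pan-macrophage UMIs per 10000 and 4.92 and 18.5 at 150. At 200 the ratios were 3.69 and 33.4, the second with an interval of 6.90 to 317. Looser cell filters, thinning, all 3 rule genes, doublet removal, the limit of 50 and the denominator without lymphocytes moved the 2 ratios by less than their counting intervals. The rule of at least 4 UMIs gave 56 members in AS, 31 in MTZ-treated, 19 in MTZ-preventive and 2 in the library labelled Healthy, which had 0 in the other settings run on it.

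For MTZ-treated to AS in members, the Spp1 log2 ratio was -0.68 with TMM factors, -0.33 as a mean over cells, -0.46 thinned, -1.13 in members with all 3 rule genes, -1.94 without RNA of another cell type, -1.81 at 100 pan-macrophage UMIs, -1.17 with profiles weighted once and -0.39 without the richest barcode. Mmp12 was at 0.24 as a mean over cells, -0.0155 thinned (reversed), 1.70 without called doublets, 2.57 without RNA of another cell type, 2.41 at 100, 0.27 by profiles and 0.97 without the richest barcode. Cd74 was at 3.86 thinned, 2.11 with all 3 rule genes, 4.98 without RNA of another cell type, 3.34 by profiles and 3.64 without the richest barcode. The causes were not tested.

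Genes past 2-fold higher numbered 124 with TMM factors (68 lower), 141 as a mean over cells (117 lower), 341 thinned (192 lower) and 173 with all 3 rule genes (176 lower). They numbered 118 without RNA of another cell type, 125 by profiles, 45 without the richest barcode and 168 at 50 CPM (246 lower). Without a filter 892 were higher and 2026 lower, and with a pseudocount of 50 CPM 49 were higher. At 100 pan-macrophage UMIs 130 were lower.

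Single genes reversed as follows. With all 3 rule genes H2-Eb1 was at -0.0460, Ccl7 at -1.66, Col4a1 at 2.37 and Col6a1 at 3.22. Pi16 was at -1.02 without called doublets and -0.74 without the richest barcode. Without RNA of another cell type Hp was at 0.64 and Col4a1 at 1.52. At 100 pan-macrophage UMIs Mt1 was at 0.0585, Col4a1 at 1.88 and Col6a1 at 2.19. To C1q macrophages of AS, Spp1 was 4.95 and Lgals3 3.60 times as high at 100. Unthinned, Mmp12 was seen in 92.4% of AS and 94.1% of MTZ-treated members. Thinned to 1000 UMIs, as reported, these shares were 68.2% and 70.6%. Of the other values of single genes 179 were within counting error and 90 moved beyond it, 10 of these 90 with a change of sign in genes that were within 2-fold as reported. As a mean over cells and thinned, Trem2 was at 0.09 and 0.10, Ms4a7 at 0.31 and 0.12, C1qb at 0.23 and 0.13, and Lpl at -0.49 and -0.60. Lpl was at -0.36 by profiles and, within counting error, at -0.0088 without the richest barcode, and Tyrobp at -0.0051 without RNA of another cell type. Of the values for shares, numbers of genes, Spp1, Mmp12, Cd74 and levels against C1q macrophages 44 were within counting error or 1.5 times, 53 moved and 1 reversed.

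Depth limits the statements: a count of 0 allows 21.0 CPM for AS, 25.3 for MTZ-treated and 47.4 for MTZ-preventive members. With 1 library per group, leaving out a replicate was not possible.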
